A study of Mus musculus with 12 samples.

Results

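The genotype effect of Sgsh loss was compared between neuronal nuclei and Olig2+ nuclei at the 29547 open chromatin regions (peaks) that both sorts share. A peak of the NeuN+ table and a peak of the Olig2+ table were taken as shared where they overlapped one to one, with each covering at least 50% of the other. This kept 27.5% of the 107627 NeuN+ peaks and 35.8% of the 82577 Olig2+ peaks, out of 281974 peaks in the 3 tables of the series. A microglia peak was present at 19362 of the shared peaks (65.5%), and 10185 had none. The assay was ATAC-seq: a transposase inserts sequencing adapters where chromatin is open, so tags pile up at accessible DNA. The nuclei came from forebrain of C57BL/6 mice aged 4 months, either wild type (WT) or SgshKO, and were lightly fixed with formaldehyde before sorting. Neuronal nuclei were gated as NEUN+ and negative for OLIG2 and PU.1. Olig2+ nuclei were gated as OLIG2+ and negative for NEUN and PU.1. Each of the 4 groups had 2 libraries. The labels do not say what kind of allele SgshKO is, nor whether the 2 libraries of a group came from separate animals, so the p-values measure only the spread between these libraries.

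Sgsh encodes the lysosomal sulfamidase that removes sulfate groups from heparan sulfate, a sugar chain of cell surface and matrix proteoglycans. When the enzyme is missing, partly degraded heparan sulfate builds up in lysosomes, as in the childhood brain disease mucopolysaccharidosis IIIA. NeuN (Rbfox3) is a nuclear protein of most neurons, and Olig2 is a transcription factor of oligodendrocytes and their precursors. Both sorts carry the same Sgsh genotype, so the interaction asks whether genotype moved a region differently in the 2 kinds of nuclei. It is the SgshKO minus WT difference in NeuN+ nuclei minus the same difference in Olig2+ nuclei, on log2(normalized tags + 1). A negative interaction means a lower SgshKO to WT ratio in NeuN+ than in Olig2+ nuclei, and a positive one the reverse. In bulk nuclei, fewer nuclei of a type and less open chromatin per nucleus cannot be told apart.

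The libraries held 14326703 to 17706971 tags in NeuN+ nuclei and 15044194 to 19555924 in Olig2+ nuclei, and in both sorts the WT libraries were the deeper ones. Shared peaks held 15.5% and 14.8% of all tags in the WT NeuN+ libraries but 10.6% and 10.4% in the SgshKO ones. Olig2+ libraries had shares of 19.1% and 18.9% for WT against 18.9% and 19.5% for SgshKO. The 2 genotypes were thus apart in NeuN+ libraries and overlapped in Olig2+ libraries. All 12 neuron markers had a peak within 1000 bp of a start site in the NeuN+ table, and Rbfox3 had none in the Olig2+ table. All 12 oligodendrocyte markers had one in the Olig2+ table, and 6 of 12, without Olig2, Sox10, Mog, Mag, Mobp and Ermn, in the NeuN+ table. In NeuN+ nuclei the WT libraries had 1302 and 1210 summed neuron marker tags and the SgshKO ones 734 and 753. The oligodendrocyte sum in the same libraries was 246 and 209 against 117 and 125, and the astrocyte sum (4 of 10 markers had a peak, without Gfap and Aqp4) was 308 and 270 against 194 and 203. In Olig2+ nuclei the oligodendrocyte sum was 4119 and 4066 in WT and 3494 and 3496 in SgshKO, and the precursor sum (6 of 6 markers) was 345 and 357 against 408 and 407. The neuron sum there (7 of 12 markers, without Rbfox3 and Slc17a7) ranged from 201 to 220, and the genotypes overlapped. The microglia sum in Olig2+ nuclei (2 of 12 markers, without Spi1, Cx3cr1 and P2ry12) was 240 and 233 against 271 and 284. The part of these marker sums and of the share of tags in peaks in the interactions was not tested.

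The DNA before the start sites of named promoters is shown because base composition ordered the interaction there. The first sequence below lies before a start site with a positive interaction, and the other 5 before start sites with negative ones. Each is the 150 bases before the RefSeq start on GRCm38.p6, written in the gene's direction, and the capitals mark CG dinucleotides.
H2bc12 (chr13:22035671-22035820, + strand): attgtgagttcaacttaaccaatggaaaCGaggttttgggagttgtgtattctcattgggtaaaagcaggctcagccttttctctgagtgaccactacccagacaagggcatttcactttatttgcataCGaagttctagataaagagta
Fam43b (chr4:138396459-138396608, - strand): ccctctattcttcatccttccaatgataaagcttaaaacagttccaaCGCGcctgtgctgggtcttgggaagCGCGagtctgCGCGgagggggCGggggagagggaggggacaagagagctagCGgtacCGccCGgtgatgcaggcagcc
Prr7 (chr13:55464117-55464266, + strand): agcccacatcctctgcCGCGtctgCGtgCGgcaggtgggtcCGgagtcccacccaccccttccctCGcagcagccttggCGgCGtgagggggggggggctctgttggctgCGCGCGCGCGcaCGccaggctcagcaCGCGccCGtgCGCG
Tle4 (chr19:14598184-14598333, - strand): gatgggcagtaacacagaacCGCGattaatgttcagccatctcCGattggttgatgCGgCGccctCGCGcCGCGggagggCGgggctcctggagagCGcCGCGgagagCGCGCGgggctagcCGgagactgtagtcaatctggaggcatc
Tfeb (chr17:47736887-47737036, + strand): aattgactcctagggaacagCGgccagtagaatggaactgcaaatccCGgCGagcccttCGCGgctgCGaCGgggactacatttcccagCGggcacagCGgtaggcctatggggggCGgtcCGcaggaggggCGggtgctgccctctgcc
Map1lc3b (chr8:121590288-121590437, + strand): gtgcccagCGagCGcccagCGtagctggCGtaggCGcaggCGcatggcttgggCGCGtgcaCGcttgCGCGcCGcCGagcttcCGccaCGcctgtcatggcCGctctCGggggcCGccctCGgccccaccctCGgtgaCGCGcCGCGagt
The H2bc12 stretch held 2 CG dinucleotides and 40.7% G or C. The negative ones held from 10 CG dinucleotides (Fam43b, 60.7% G or C) to 24 (Map1lc3b, 76.7%). The same stretch of Tmem138, a positive promoter not printed since it overlaps a gene, held 10 CG dinucleotides and 52.7% G or C.

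At the Sgsh start site the SgshKO to WT ratio was lower in neuronal than in Olig2+ nuclei. This peak (chromosome 11, 119355412 to 119355635 in the NeuN+ table and 119355403 to 119355637 in the Olig2+ table, mm10) lies at the start of the gene the mutation is named for. The NeuN+ libraries had 34.5 and 22.6 normalized tags in WT and 9.07 and 13.3 in SgshKO, which do not overlap. In Olig2+ nuclei it had 65.9 and 74.2 in WT and 60.9 and 69.1 in SgshKO, which do. The interaction was -1.16 ± 0.31 (SE), with an adjusted p of 0.00329 by limma and 0.0129 after quantile normalization. By edgeR with TMM scaling it was -0.76 and not called (adjusted p = 0.0758), by DESeq2 -0.8 (adjusted p = 0.222), and without WT NeuN+ replicate 1 it was -0.87 (adjusted p = 0.0531). A promoter's accessibility does not check the genotype label.

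An intergenic peak 25681 bp from Col19a1 (chromosome 1, 24613018 to 24613218), a gene for a collagen chain, had 0 reads in all 4 WT libraries of both sorts. Its SgshKO tags were 489 and 514 in the neuronal libraries and 731 and 693 in the Olig2+ ones. With each WT library set to a floor of 3 reads, NeuN+ signal was at least 295-fold higher in SgshKO, and for Olig2+ signal the bound was 461-fold. Its interaction was -0.51 ± 0.32 and was not called (adjusted p = 0.236), and by edgeR with TMM it was 0.11. It was the only shared peak with 0 reads in both WT libraries of a sort. The parts of read mapping, read filtering and chromatin in this difference were not tested, so the fold values are not a measure of opening.

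Across all shared peaks most called interactions were negative, and most of these came from peaks called lower in neuronal nuclei and not called in Olig2+ nuclei. At an adjusted p under 0.05, 9383 peaks (31.8%) had a negative and 972 (3.29%) a positive interaction with the deposited totals, and the median interaction was -0.41. Taken singly in the same model, 45.5% of shared peaks were lower and 2.37% higher in SgshKO NeuN+ nuclei. In Olig2+ nuclei 9.41% were lower and 7.99% higher. The Pearson correlation of the 2 effects over the 29547 peaks was -0.02, as a description over peaks that share libraries. The largest single class, 10796 peaks, was lower in NeuN+ nuclei and not called in Olig2+ nuclei, and 6531 of these had a called interaction.

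The excess of negative calls depended on how the libraries were scaled. Quantile normalization within each table, which removes differences of the whole distribution between libraries, gave 4895 negative (16.6%) and 1741 positive calls (5.89%) and moved the median interaction to -0.20. Positive calls made up 9.39% of calls with the deposited totals, 26.2% after quantile normalization, 26.6% with the in-peak sum, 16.3% with median-of-ratios factors and 31.2% by DESeq2. By edgeR with TMM they made up 48.1% (3344 positive, 3601 negative), with a median interaction of 0.03. Both with the deposited totals and after quantile normalization, 822 peaks were called positive (2.78%) and 4887 negative (16.5%), and 29 peaks were called with opposite signs. In all 5 of deposited, quantile, in-peak, median-of-ratios and TMM scaling, 822 peaks were called positive and 3001 negative. The in-peak, median-of-ratios and TMM medians were -0.15, -0.27 and 0.03, above the -0.41 of the deposited totals. Such a shift favours positive calls, so these scalings could filter mainly the negative ones. Peaks are called below positive or negative in both scalings where only the deposited and quantile scalings are meant.

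**Figure D1:**
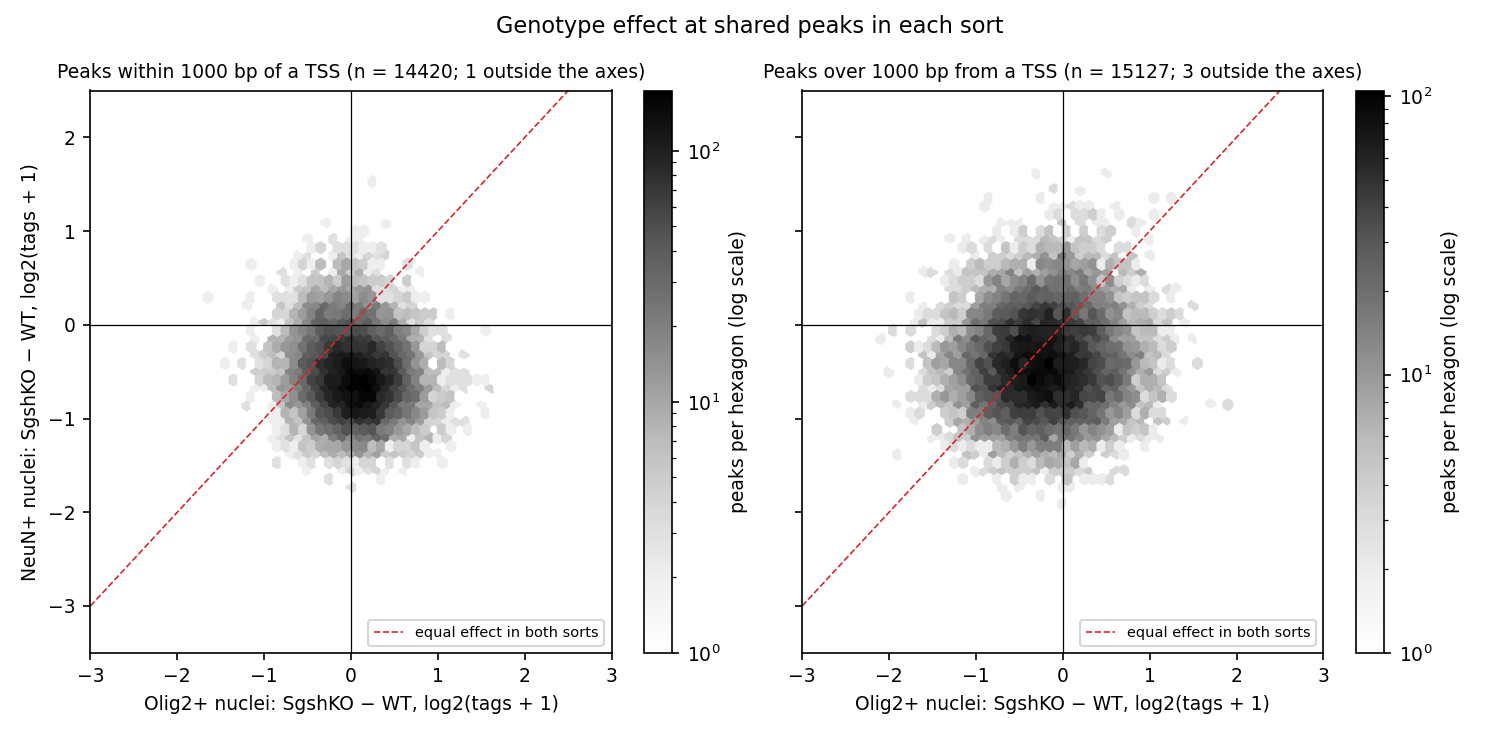
Genotype effect (SgshKO minus WT, log2 of tags + 1) in Olig2+ nuclei on the x axis and NeuN+ nuclei on the y axis, for 14420 shared peaks within 1000 bp of a start site (left) and 15127 farther away (right), with the shade giving peaks per hexagon on a log scale. The bulk at promoters sits below 0 on the y axis and near 0 on the x axis, with medians of -0.57 and 0.06, and the bulk of distal peaks is below 0 on both, with medians of -0.41 and -0.21.

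At the 14420 peaks within 1000 bp of a transcription start site (TSS), 49.3% of interactions were called negative and 1.73% positive, with a median of -0.62. At the 15127 other peaks 15.0% were negative and 4.77% positive, with a median of -0.17. The median NeuN+ effect was -0.57 at promoters and -0.41 at distal peaks. The median Olig2+ effect was 0.06 at promoters and -0.21 at distal peaks. The median interaction was -0.65 within 100 bp of a TSS, -0.31 between 1000 and 10000 bp, and 0.03 beyond 100000 bp, where 9.71% of peaks were positive and 9.43% negative. Peaks that the deposited annotation placed in an exon (1150 peaks) had a median of -0.75 and those in an intron (9251 peaks) one of -0.20.

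The promoter minus distal difference in the median interaction was -0.45, and it ranged from -0.49 to -0.39 over the 16 ways of taking 1 library per group. It was -0.18 after quantile normalization, over 1.5 times smaller, and -0.44 to -0.45 with the in-peak sum, median of ratios and TMM. It also depended on signal: in the 10 deciles of mean signal it ran from -0.48 to -0.06, and in the decile of strongest signal promoters (-0.68) and distal peaks (-0.62) were close. Peak classes are not replicates, so these are descriptions with no test.

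**Figure D2:**
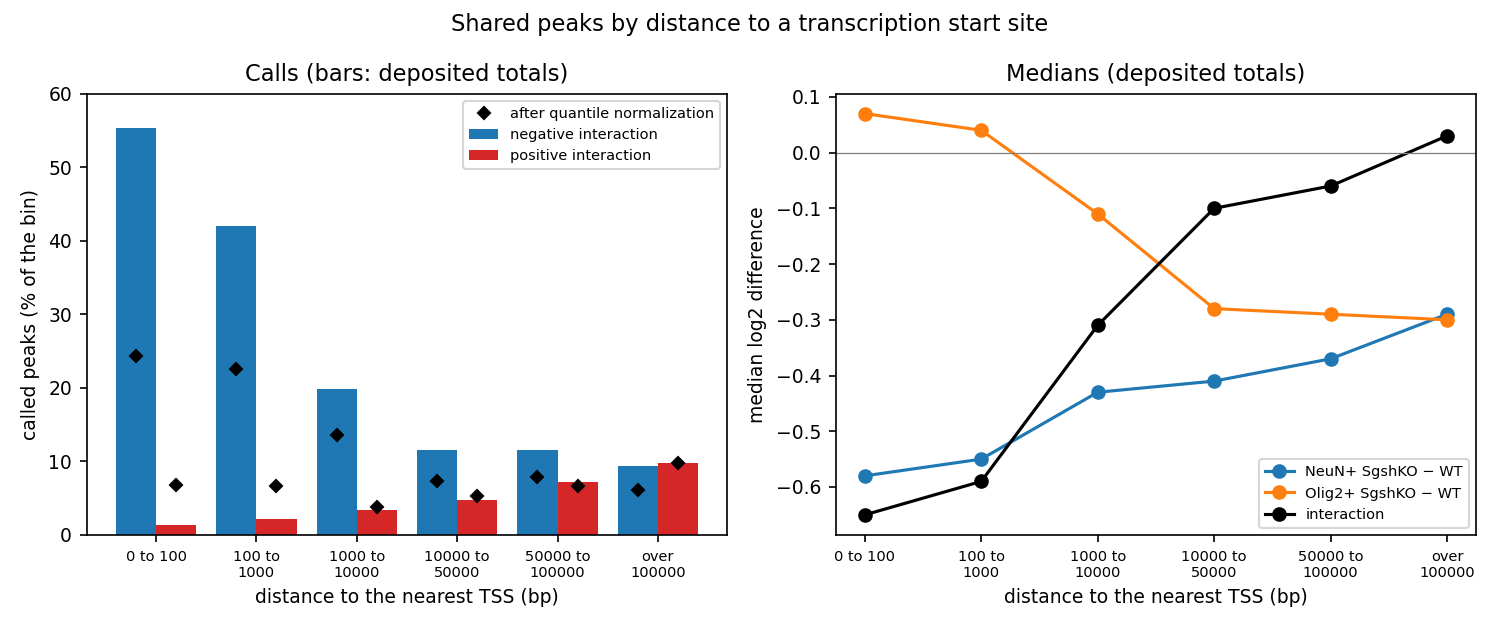
Shared peaks binned by distance to the nearest TSS in bp: share of each bin called negative or positive (left, bars for deposited totals, diamonds after quantile normalization) and the median log2 difference in each sort and of the interaction (right). Negative calls drop from 55.3% within 100 bp to 9.43% beyond 100000 bp, while the Olig2+ median goes from 0.07 to -0.30.

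Base composition of the start site ordered the genotype effect in opposite ways in the 2 sorts. Of 7953 shared peaks within 100 bp of a TSS, 6435 (80.9%) overlapped a 300-base RefSeq promoter window on GRCm38.p6. In the tenth of these windows lowest in GC (34.7% to 51.7%), the median effect was -0.20 in NeuN+ and -0.19 in Olig2+ nuclei, and the median interaction was 0.01. In the tenth highest in GC (73.3% to 86.7%), it was -0.77 in NeuN+ but 0.28 in Olig2+ nuclei, with an interaction of -1.02. The median of the interaction fell, and that of the Olig2+ effect climbed, at each step between the 10 deciles. After quantile normalization the end deciles had interactions of 0.25 and -0.64. The share of negative calls went from 10.3% to 86.2%, and no peak of the 6 deciles above 60% GC had a positive call with the deposited totals.

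The same order was visible in the tags. In the lowest decile the median peak had 33.4 and 33.9 tags in WT and 31.4 and 30.5 in SgshKO NeuN+ libraries, and 40.5 and 39.9 against 34.4 and 35.9 in Olig2+ libraries. In the highest it had 73.6 and 72.3 against 42.6 and 41.3 in NeuN+ libraries, and 72.6 and 68.5 against 81.8 and 90.4 in Olig2+ libraries. In the highest decile the SgshKO medians lay below WT in NeuN+ and above WT in Olig2+ libraries, and in the lowest decile they lay below WT in both. The difference between the end deciles ranged from -1.11 to -0.98 over the 16 ways of taking 1 library per group. Fitted alone, these 6435 peaks gave 3797 negative (59.0%) and 116 positive calls (1.8%). After a loess correction on GC within each library they gave 3872 negative (60.2%) and 22 positive calls (0.342%) (3099 calls of the correction had the sign of the deposited-total calls and 1 the opposite). The correction keeps the overall shift of each library and moves every GC level to it. By this construction the median interaction became -0.62 in the lowest and -0.60 in the highest decile. These counts therefore cannot show whether the excess of negative calls is independent of GC. Whether the GC order comes from the nuclei or from the libraries was not tested.

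**Figure D3:**
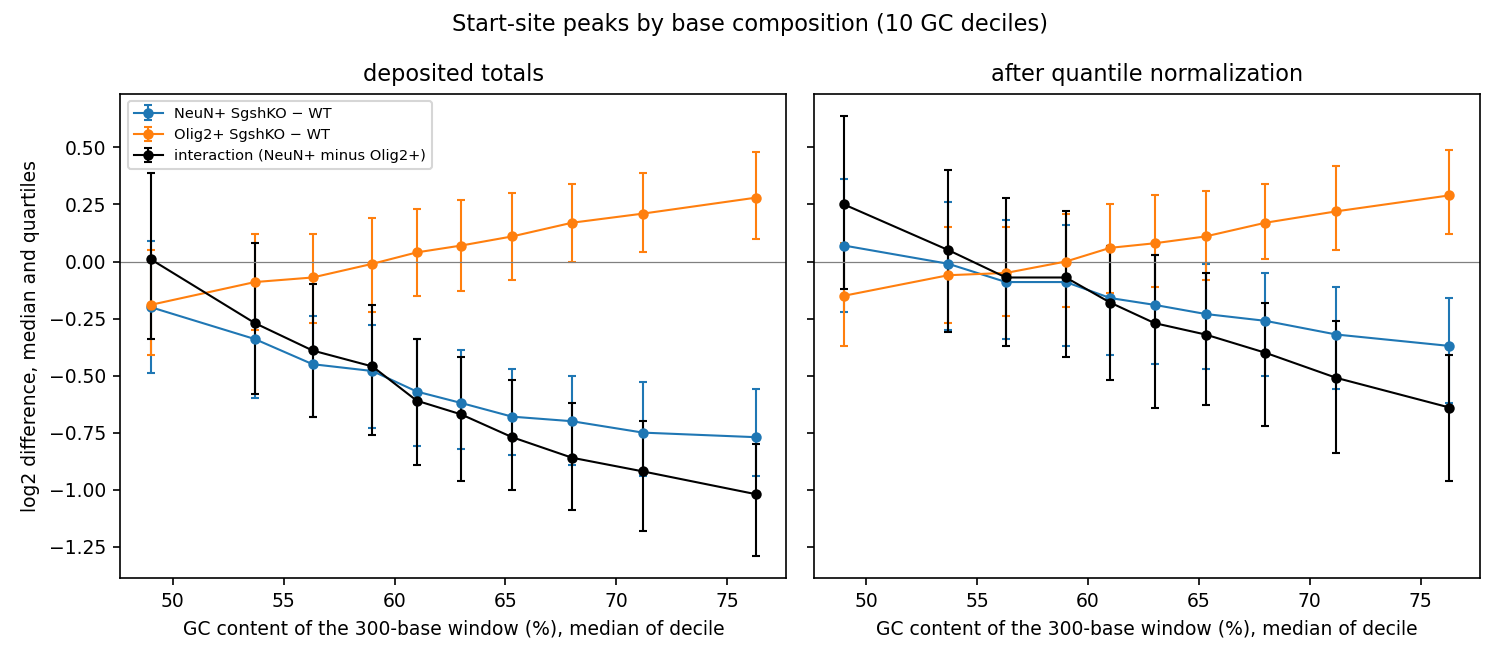
Median log2 difference (points) and quartiles (bars) at start-site peaks in 10 deciles of the GC content of the 300-base window, with deposited totals (left) and after quantile normalization (right). With rising GC the NeuN+ effect goes from -0.20 to -0.77 and the Olig2+ effect from -0.19 to 0.28 with deposited totals.

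The 14 motifs searched were CACGTG (MITF, TFEB and clock factors), TCACGTGA (its longer form, which contains it), TGANTCA (AP-1), TGACGTCA (CREB and ATF), GCGCATGCG (NRF1), GGGCGG (SP and KLF), CCGGAAG (ETS), CCAAT (NF-Y), ACAAAG (SOX), CTATTTNTA (MEF2), CAGATG (NEUROD and OLIG factors), CCACNAGGG (CTCF), ACANNNTGT (glucocorticoid receptor) and AAGATGGC (YY1). Of these, searched on both strands of the windows, GGGCGG differed most between the directions. They were in 85.9% of the 1494 windows negative in both scalings, in 34.9% of the 86 positive ones, in 70.7% of all 6435 and in 35.7% of all 32851 RefSeq windows. Among windows of 60% to 65% GC the share was 80.3% in the negative ones and 75.6% in all. The letters CCAAT went the other way, at 30.1% of negative, 51.2% of positive, 39.3% of all start-site and 37.4% of all RefSeq windows. The letters ACANNNTGT were in 9.3% of positive, 2.41% of negative, 3.25% of all start-site and 6.85% of all RefSeq windows. Between 60% and 65% GC they went the other way, at 5.67% of negative and 3.23% of all windows. The AP-1 letters were in 9.3% of positive, 2.95% of negative, 3.85% of all start-site and 7.81% of all RefSeq windows. The CACGTG box was in 9.91% of negative and 9.3% of positive windows, against 11.5% of all start-site and 7.15% of all RefSeq windows. These are matches of letters, with no test of binding.

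With the deposited totals, peaks with called genotype effects of opposite sign in the 2 sorts were mostly promoters with a drop in neurons. There were 1472 (4.98%) that were lower in SgshKO NeuN+ and higher in SgshKO Olig2+ nuclei, and 84.9% of them lay within 1000 bp of a TSS against 48.8% of all shared peaks. After quantile normalization 463 of them were still opposite in this way. The reverse, higher in NeuN+ and lower in Olig2+ nuclei, was called at 53 peaks (0.179%), of which 26.4% were promoters and 58.5% had no microglia peak. Of these 53, 36 were opposite after quantile normalization. The contrast between the 2 directions depended on scaling. Over all shared peaks, quantile normalization gave 518 peaks lower in NeuN+ and higher in Olig2+ nuclei, and 194 of the reverse.

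Ranked by the smaller of their 2 effects, the first 3 of these 53 peaks with at least median signal and called in both scalings were distal. A peak 87743 bp upstream of the start of Bend5 (chromosome 4, 111327073 to 111327453), in an intron of the neighbouring gene Agbl4, had 24.4 and 30.5 tags in WT and 58.6 and 51.4 in SgshKO NeuN+ nuclei. In the Olig2+ libraries it had 73.7 and 96.7 in WT and 24.0 and 23.3 in SgshKO. Neither sort overlapped between genotypes, and the interaction was 2.78 ± 0.27 (limma, adjusted p = 1.18e-09). An intergenic peak 86791 bp from Slc38a4, which encodes an amino acid transporter (chromosome 15, 96933411 to 96933726), had 24.4 and 28.2 tags in WT and 55.8 and 54.0 in SgshKO NeuN+ nuclei. In Olig2+ nuclei it went from 123 and 146 in WT to 46.1 and 49.9 in SgshKO, an interaction of 2.5 ± 0.23 (adjusted p = 4.9e-10). The third, 186000 bp from Atp10a, which encodes a lipid flippase (chromosome 7, 58844071 to 58844333), had the lower level in Olig2+ nuclei. It had 31.1 and 26.0 tags in WT and 64.2 and 88.2 in SgshKO NeuN+ nuclei, and 23.3 and 19.4 against 9.84 and 13.3 in Olig2+ nuclei (interaction 2.21 ± 0.33, adjusted p = 2.21e-06).

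The largest positive interaction among distal peaks of at least median signal lay in intron 3 of Zbtb16 (chromosome 9, 48736367 to 48736615), a zinc finger transcription factor gene known to respond to glucocorticoids. The Olig2+ libraries held 89.7 and 84.4 tags for WT against 17.2 and 18.6 for SgshKO. The NeuN+ tags went from 17.6 and 17.5 in WT to 31.4 and 22.9 in SgshKO. At this peak Olig2+ nuclei thus lost most of the signal while NeuN+ nuclei were higher. The interaction was 2.8 ± 0.31 (limma, adjusted p = 1.02e-08) and 2.91 after quantile normalization (adjusted p = 1.9e-07). The NeuN+ gain was not general in this intron. A nearby positive peak (48737595 to 48737843) had a called NeuN+ decrease, from 49.3 and 52.0 tags in WT to 36.3 and 33.0 in SgshKO. The other positive peaks there had NeuN+ effects of -0.64 to 0.4 that were not called.

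The largest negative interactions among distal peaks of at least median signal joined a loss in NeuN+ to a gain in Olig2+ nuclei at 3 of 4 genes. A peak in intron 1 of Cadps (chromosome 14, 12821821 to 12822041), whose protein primes dense-core vesicles for release, had 35.3 and 47.0 tags in WT and 123 and 141 in SgshKO Olig2+ nuclei. In NeuN+ nuclei it had 30.6 and 32.8 in WT and 12.6 and 21.6 in SgshKO (interaction -2.57 ± 0.29, limma adjusted p = 2.71e-08). A peak 1232 bp upstream of Hes1 (chromosome 16, 30064009 to 30064242), a Notch target that holds back differentiation, went from 28.9 and 27.7 to 8.38 and 15.9 in NeuN+ nuclei. In the Olig2+ libraries it went from 16.6 and 18.9 to 41.8 and 46.5, and neither sort overlapped (interaction -2.49 ± 0.36, adjusted p = 1.63e-06). A peak in intron 2 of Itgb5, an integrin subunit gene (chromosome 16, 33859984 to 33860258), went from 67.4 and 60.9 to 127 and 122 in Olig2+ nuclei and from 10.8 and 10.2 to 4.89 and 1.9 in NeuN+ nuclei (interaction -2.42 ± 0.37, adjusted p = 3.09e-06). The fourth, 31232 bp from Plekha1, which encodes a phosphoinositide-binding adaptor (chromosome 7, 130834391 to 130834593), was lower in both sorts. It fell from 109 and 111 to 7.68 and 14.0 in NeuN+ nuclei and from 30.1 and 38.4 to 23.4 and 14.0 in Olig2+ nuclei, so that its interaction of -2.41 ± 0.35 (adjusted p = 1.6e-06) reflects the size of the drop and not its sign.

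Among promoter peaks of at least median signal, the largest negative interactions had lower signal in 1 of the 2 sorts in WT. Adamts1, which encodes a secreted metalloprotease that cuts proteoglycans, had 86.6 and 89.0 tags in WT and 237 and 253 in SgshKO Olig2+ nuclei 126 bp from its start (chromosome 16, 85803134 to 85803345). In NeuN+ nuclei the same peak had 11.3 and 20.3 in WT and 4.89 and 8.89 in SgshKO (interaction -2.56 ± 0.32, limma adjusted p = 1.18e-07). The other 3 had more tags in NeuN+ than in Olig2+ libraries in WT, and Rbms1 had fewer in SgshKO. Fam43b (chromosome 4, 138396382 to 138396587) had 113 and 108 tags in WT and 57.9 and 42.5 in SgshKO NeuN+ nuclei, and 4.67 and 3.58 against 14.1 and 10.6 in Olig2+ nuclei (interaction -2.52 ± 0.34, adjusted p = 4.87e-07). Prr7 (chromosome 13, 55464107 to 55464347), which encodes a membrane protein of synapses and T cells, had 83.3 and 106 against 46.8 and 53.3 in NeuN+ and 5.71 and 3.58 against 15.4 and 14.6 in Olig2+ nuclei (interaction -2.43 ± 0.34, adjusted p = 8e-07). Rbms1 (chromosome 2, 60881296 to 60881564), which encodes an RNA-binding protein, had 46.5 and 35.6 against 20.2 and 19.7 in NeuN+ and 13.5 and 9.2 against 28.3 and 35.9 in Olig2+ nuclei (interaction -2.43 ± 0.35, adjusted p = 1.25e-06). The start site of Grid1 (chromosome 14, 34819981 to 34820197), a delta glutamate receptor gene, completed the top opposite peaks of this direction with Hes1 and Fam43b, at 48.1 and 53.6 against 20.9 and 23.5 in NeuN+ and 10.4 and 9.72 against 21.5 and 23.9 in Olig2+ nuclei. At all 5 of these genes both SgshKO libraries lay below both WT ones in NeuN+ and above them in Olig2+ nuclei. For Fam43b, Prr7 and Rbms1, whose windows allowed the GC correction, the interaction after it was -2.64, -2.19 and -1.93.

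Among promoter peaks of at least median signal the largest positive interactions were smaller than at distal peaks. H2bc12, a replication-dependent histone H2B gene with close copies in the histone clusters, had 30.6 and 28.2 tags in WT and 42.6 and 45.7 in SgshKO NeuN+ nuclei (chromosome 13, 22035615 to 22035868). In Olig2+ nuclei it had 24.4 and 30.7 in WT and 12.9 and 9.97 in SgshKO. Its interaction was 1.77 ± 0.32 (limma, adjusted p = 5.65e-05), and after the GC correction 0.95 (adjusted p = 0.0138). At Cab39l (chromosome 14, 59478701 to 59478914), a partner of the kinase LKB1, the Olig2+ libraries went from 70.0 and 61.4 to 30.7 and 24.6, while the NeuN+ ones overlapped, at 19.3 and 17.5 in WT and 18.1 and 31.1 in SgshKO (interaction 1.58 ± 0.33, adjusted p = 0.000246). Cdk19 (chromosome 10, 40348692 to 40348951), a Mediator kinase gene, rose in NeuN+ nuclei from 20.4 and 15.2 to 39.8 and 35.5, and its Olig2+ effect of -0.32 was not called (interaction 1.37 ± 0.29, adjusted p = 0.00029). Tmem138 (chromosome 19, 10576984 to 10577225), a gene of cilium formation, rose from 13.6 and 12.4 to 25.1 and 23.5 in NeuN+ nuclei, with an Olig2+ effect of -0.5 that was not called (interaction 1.36 ± 0.34, adjusted p = 0.00173).

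**Figure D4:**
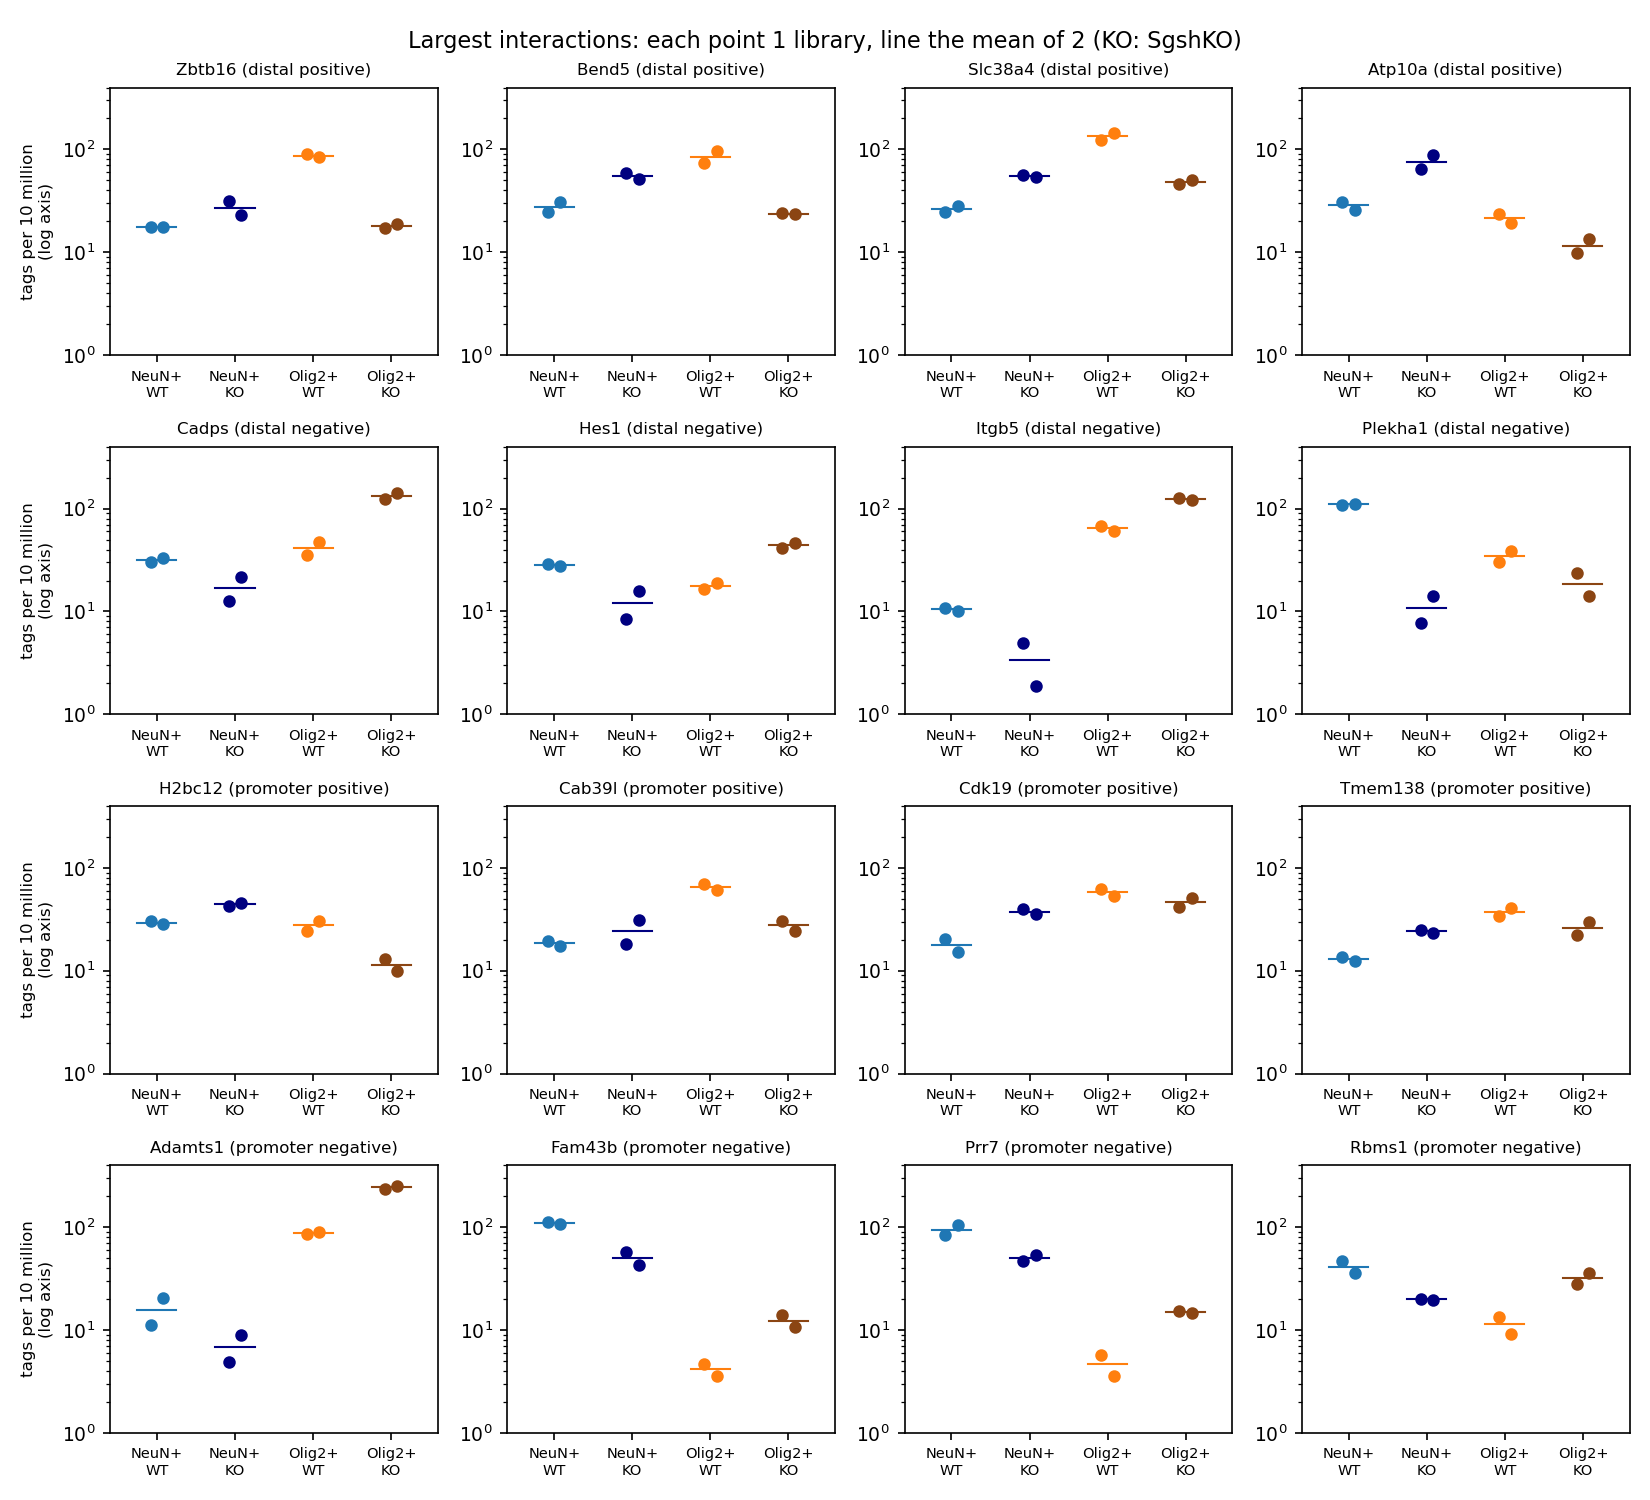
Normalized tags per library (log axis) at the 4 largest positive and 4 largest negative interactions among distal and promoter peaks called in both scalings with at least median signal; each point is 1 of 2 libraries, and the line is their mean. In the Zbtb16 panel the Olig2+ points drop from 89.7 and 84.4 to 17.2 and 18.6, and in the Adamts1 panel they climb from 86.6 and 89.0 to 237 and 253.

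Genes were then grouped by role into 23 pathway lists, counted over peaks within 1000 bp of a member's TSS unless stated. For comparison, 49.3% of all 14420 promoter peaks were called negative and 1.73% positive, with a median interaction of -0.62 (deposited totals) or -0.29 (quantile). Since scaling moves this median by over 0.1, a list is described by its place against it. Of the 23 lists, 10 had a lower median than all promoter peaks, and 21 stayed on their side of it in all 5 scalings. The other 2, cholesterol and mature myelin genes, changed side after quantile normalization. Start-site windows of the lists also differed in GC, with medians from 56.3% (ribosomal) to 72.3% (channels), against 62.0% of all windows. The GC correction moved the median interaction of ribosomal windows (33) from -0.37 to -0.55. Channel windows (9) went from -1.09 to -0.92, and all windows from -0.64 to -0.61. Synaptic vesicle windows (12) moved away from that of all windows, from -0.8 to -0.87. The part of GC in the order of the lists was not tested. The peak with the smallest p among those of at least median signal was named for each list, and other members were chosen after their values were seen.

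Heparan sulfate enzymes, the pathway of Sgsh, had 9 promoter peaks from 8 of 11 breakdown genes, with 6 called negative, 0 positive and a median of -0.92. Over all 23 peaks nearest to these genes the median was -0.19 with 26.1% negative, nearer to 0 than all shared peaks (-0.41 and 31.8%). Hgsnat, the lysosomal acetyltransferase of the same pathway, had 184 and 171 tags in WT and 97.0 and 77.5 in SgshKO NeuN+ nuclei (chromosome 8, 25976619 to 25976854). In the Olig2+ libraries it had 159 and 168 in WT and 164 and 160 in SgshKO, which overlap, and its interaction was -1.01 ± 0.16 (limma, adjusted p = 7.15e-06; quantile -0.42, adjusted p = 0.049). Arsg, a lysosomal sulfatase gene, had 69.1 and 54.8 against 24.4 and 33.0 in NeuN+ and 26.4 and 31.7 against 39.4 and 35.2 in Olig2+ nuclei (interaction -1.44 ± 0.29, adjusted p = 0.00016). The call at Naglu (interaction -0.89) was lost after quantile normalization (adjusted p = 0.0739), and those at Sgsh and 1 of 2 Sulf2 peaks were kept. Ids and Gusb were not called, with interactions of -0.31 (adjusted p = 0.35) and -0.35 (adjusted p = 0.464). The list of heparan sulfate synthesis enzymes and proteoglycan cores had 17 of 24 promoter peaks called negative and 0 positive, with a median of -1.02. Hs3st1, a sulfotransferase gene, led it with 169 and 152 against 69.1 and 56.5 tags in NeuN+ and 239 and 244 against 237 and 249 in Olig2+ nuclei (interaction -1.35 ± 0.15, adjusted p = 2.12e-08).

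Other lysosomal lists lay nearer to 0 than all promoters. Lysosomal hydrolases had 16 of 35 peaks called negative, 2 positive and a median of -0.54, and membrane proteins with the proton pump 17 of 41 negative, 0 positive and -0.38. Asah1, which encodes acid ceramidase, had 263 and 275 against 131 and 145 tags in NeuN+ and 376 and 388 against 428 and 458 in Olig2+ nuclei (interaction -1.17 ± 0.11, limma adjusted p = 1.34e-09). Npc1, the lysosomal cholesterol exporter, had an interaction of -0.96 ± 0.12 (adjusted p = 1.08e-07). The list of MiT/TFE factors, which switch on lysosomal genes, and of mTORC1 regulators had 11 of 25 peaks negative and 1 positive. Its Tfeb peak (chromosome 17, 47736891 to 47737129) had 154 and 153 against 97.0 and 72.4 tags in NeuN+ and 200 and 206 against 263 and 266 in Olig2+ nuclei, so both sorts were called in opposite directions (interaction -1.24 ± 0.16, adjusted p = 1.46e-07). Autophagy genes had 21 of 39 negative and 1 positive, led by Map1lc3b, which encodes an autophagosome coat protein, at -1.15 ± 0.15 (adjusted p = 1.54e-07).

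Lists of neuronal genes had some of the lowest medians. Their shares of negative calls, from 41.7% (inhibitory identity) to 62.9% (channels), lay on both sides of the 49.3% of all promoter peaks. Voltage-gated channel genes had 22 of 35 peaks negative, 0 positive and a median of -1.05. The Kcnq3 peak, at a potassium channel gene that limits firing (chromosome 15, 66286690 to 66286946), had 161 and 152 against 67.0 and 69.2 tags in NeuN+ nuclei. In Olig2+ nuclei it had 221 and 209 against 334 and 336, with no overlap in either sort, and its interaction of -1.82 ± 0.14 had an adjusted p of 1.4e-11. Glutamate receptor and postsynaptic genes had 17 of 32 negative, 0 positive and a median of -0.92. Among them Homer1, a scaffold gene, had an interaction of -1.39 ± 0.16 (adjusted p = 2.4e-08), with 167 and 145 against 73.3 and 61.6 tags in NeuN+ nuclei and an Olig2+ effect of 0.19 that was not called. Grin1, the obligate NMDA receptor subunit gene, had 150 and 147 against 69.8 and 73.0 in NeuN+ and 15.0 and 9.72 against 16.6 and 25.3 in Olig2+ nuclei (interaction -1.76 ± 0.29, adjusted p = 1.36e-05). Synaptic vesicle genes had 22 of 36 negative and 1 positive, with a median of -0.71. Excitatory identity genes, with a shared promoter peak at 7 of 22 genes, had 6 of 11 peaks negative, led by Tle4 (-0.85 ± 0.09, adjusted p = 1.12e-08). Inhibitory identity genes, with one at 10 of 29 genes, had 5 of 12 peaks negative. Meis2 was at -1.65 ± 0.27 (adjusted p = 8.13e-06) and, below median signal, Foxp1 at -2.83 ± 0.43 (adjusted p = 3.21e-06). Neither list had a positive call.

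The oligodendrocyte precursor and lineage list had the lowest median of the 23, -1.32. With the deposited totals, 13 of its 15 promoter peaks were called negative and 0 positive. This count depended on scaling. After quantile normalization 8 of the 15 were called negative, against 23.5% of all promoter peaks. Only 3 of the 15 were called negative in all 5 scalings, against 16.5% of all promoter peaks. Id4, an inhibitor of differentiation factors, had 187 and 201 against 150 and 136 tags in NeuN+ and 267 and 282 against 325 and 328 in Olig2+ nuclei (interaction -0.69 ± 0.13, limma adjusted p = 5.27e-05), a call lost after quantile normalization (-0.08, adjusted p = 0.657). Ptprz1, a phosphatase receptor gene of precursors, had 22.7 and 27.7 against 17.4 and 12.1 in NeuN+ and 12.4 and 9.72 against 19.7 and 29.2 in Olig2+ nuclei (interaction -1.8 ± 0.39, adjusted p = 0.000429). Mature myelin genes had 8 of 21 promoter peaks negative, 0 positive and a median of -0.41. Ugt8a, which makes the myelin lipid galactosylceramide, had 17.0 and 19.2 against 6.28 and 8.25 in NeuN+ and 226 and 196 against 267 and 227 in Olig2+ nuclei, the latter not called (interaction -1.44 ± 0.24, adjusted p = 1.9e-05, and by DESeq2 -1.12 with an adjusted p of 0.0526). Over all 104 peaks nearest myelin genes the median was 0.11, with 9 negative (8.65%) and 5 positive calls (4.81%). All shared peaks had a median of -0.41, with 31.8% negative and 3.29% positive. The oligodendrocyte marker sum was lower and the precursor sum higher in SgshKO Olig2+ libraries, as given above, and their part in these lists was not tested.

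Glucocorticoid-responsive genes had the highest median with the deposited totals, -0.17 over 32 promoter peaks, 8 called negative and 3 positive. After quantile normalization their -0.03 lay below the ribosomal (0.08), oxidative phosphorylation (0.04) and ATF4 (-0.02) lists. Over all 91 peaks nearest to the 18 genes, 15 (9 genes) were positive and 16 negative, where 3.29% of all shared peaks were positive. At 13 of these 15 the Olig2+ effect was a called decrease, against 9.41% of all shared peaks. That share is not a like comparison, since a positive interaction itself favours such a decrease. The 822 peaks positive in both scalings had a median Olig2+ effect of -0.78. No microglia peak lay at 10 of the 15, and 56.3% of the peaks positive in both scalings had none. The NeuN+ effect was called at 6 of the 15. It was a decrease at Hif3a, Pdk4, Klf15, a Plin4 peak and a Zbtb16 peak, and an increase at another Zbtb16 peak. Hif3a, a hypoxia-inducible factor gene, had 529 and 557 tags in WT and 93.5 and 89.1 in SgshKO Olig2+ nuclei 1617 bp from its start (chromosome 7, 17058188 to 17058405). In NeuN+ nuclei it had 7.93 and 9.6 against 6.28 and 3.81 (interaction 1.84 ± 0.28, limma adjusted p = 3.59e-06). Plin4, a lipid droplet coat gene, had 530 and 534 against 171 and 175 in Olig2+ and 10.2 and 11.3 against 6.28 and 8.89 in NeuN+ nuclei 965 bp from its start (interaction 1.15 ± 0.24, adjusted p = 0.000305). Pdk4, a kinase gene that holds back glucose oxidation, fell in both sorts at a peak 52885 bp away. It had 113 and 106 against 16.0 and 9.31 tags in Olig2+ and 13.6 and 20.3 against 5.58 and 5.71 in NeuN+ nuclei (interaction 1.65 ± 0.38, adjusted p = 0.000905). A Sgk1 peak 556 bp from its TSS, at a kinase gene induced by corticosteroids, had 38.4 and 41.9 against 10.4 and 14.6 in Olig2+ and 12.5 and 10.7 against 14.7 and 14.6 in NeuN+ nuclei (interaction 1.94 ± 0.38, adjusted p = 0.000117). Zbtb16 gave 6 of the 15 positive peaks, all in intron 3, which lie close together and are not independent. Not all members went this way: Ddit4, an mTORC1 inhibitor gene, had 256 and 219 against 122 and 128 in NeuN+ nuclei and overlapping values in Olig2+ nuclei (interaction -0.95 ± 0.12, adjusted p = 1.86e-07). This list was drawn up with earlier results on some of these genes known, so its count is not independent evidence.

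The remaining lists were near or above the promoter median. Cholesterol genes had 21 of 32 peaks negative, 0 positive and a median of -0.73. Insig1, which holds back sterol synthesis, had 377 and 383 against 230 and 229 tags in NeuN+ and 564 and 528 against 700 and 770 in Olig2+ nuclei, a called change in each sort (interaction -1.15 ± 0.1, limma adjusted p = 5.13e-11). The synthesis enzyme gene Sqle had 247 and 223 against 165 and 140 in NeuN+ and 332 and 372 against 445 and 572 in Olig2+ nuclei (interaction -1.14 ± 0.14, adjusted p = 6.21e-08). Immediate-early genes had 19 of 37 negative and 1 positive, and Arc, a synaptic activity gene, had 188 and 164 against 94.2 and 83.2 in NeuN+ and 211 and 244 against 307 and 312 in Olig2+ nuclei (interaction -1.43 ± 0.15, adjusted p = 2.73e-09). Clock genes had 16 of 28 negative and 1 positive, with Bhlhe40, a repressor of the clock, at -1.18 ± 0.14 (adjusted p = 6.82e-08).

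Ribosomal protein genes had a median of -0.24, with 18 of 68 peaks negative and 2 positive, and oxidative phosphorylation genes one of -0.44, with 21 of 44 negative and 1 positive. After quantile normalization the ribosomal list had 2 negative and 11 positive calls, and the other 2 and 6, where 23.5% of all promoter peaks were negative and 6.73% positive. Rpl37 (-0.97 ± 0.13, limma adjusted p = 4.24e-07) and Cox5a, a subunit of complex IV (-1.23 ± 0.2, adjusted p = 7.19e-06), had the smallest p. ATF4 and unfolded protein genes had 15 of 27 negative, and Ddit3, a stress-induced factor gene, had -0.73 ± 0.11 (adjusted p = 2.75e-06; quantile -0.13, adjusted p = 0.384). Heat shock genes had 8 of 24 negative and 2 positive, with the chaperone gene Hspa8 at -0.71 ± 0.08 (adjusted p = 2.61e-08; quantile -0.12, adjusted p = 0.231). Interferon response genes had 4 of 11 negative. Below median signal, Irf1, an interferon-induced factor gene, had -2.24 ± 0.41 (adjusted p = 5.24e-05; quantile -2.2, adjusted p = 0.000404). The named peak of the list, at the signal transducer gene Stat2, had -0.69 ± 0.14 (adjusted p = 0.000295; quantile -0.09, adjusted p = 0.697). Clustered protocadherins had 5 promoter peaks, 1 of them positive, at Pcdhga12 (1.27 ± 0.42, adjusted p = 0.0173), and the Pcdhgc3 peak was not called (-0.4 ± 0.22, adjusted p = 0.151).

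**Figure D5:**
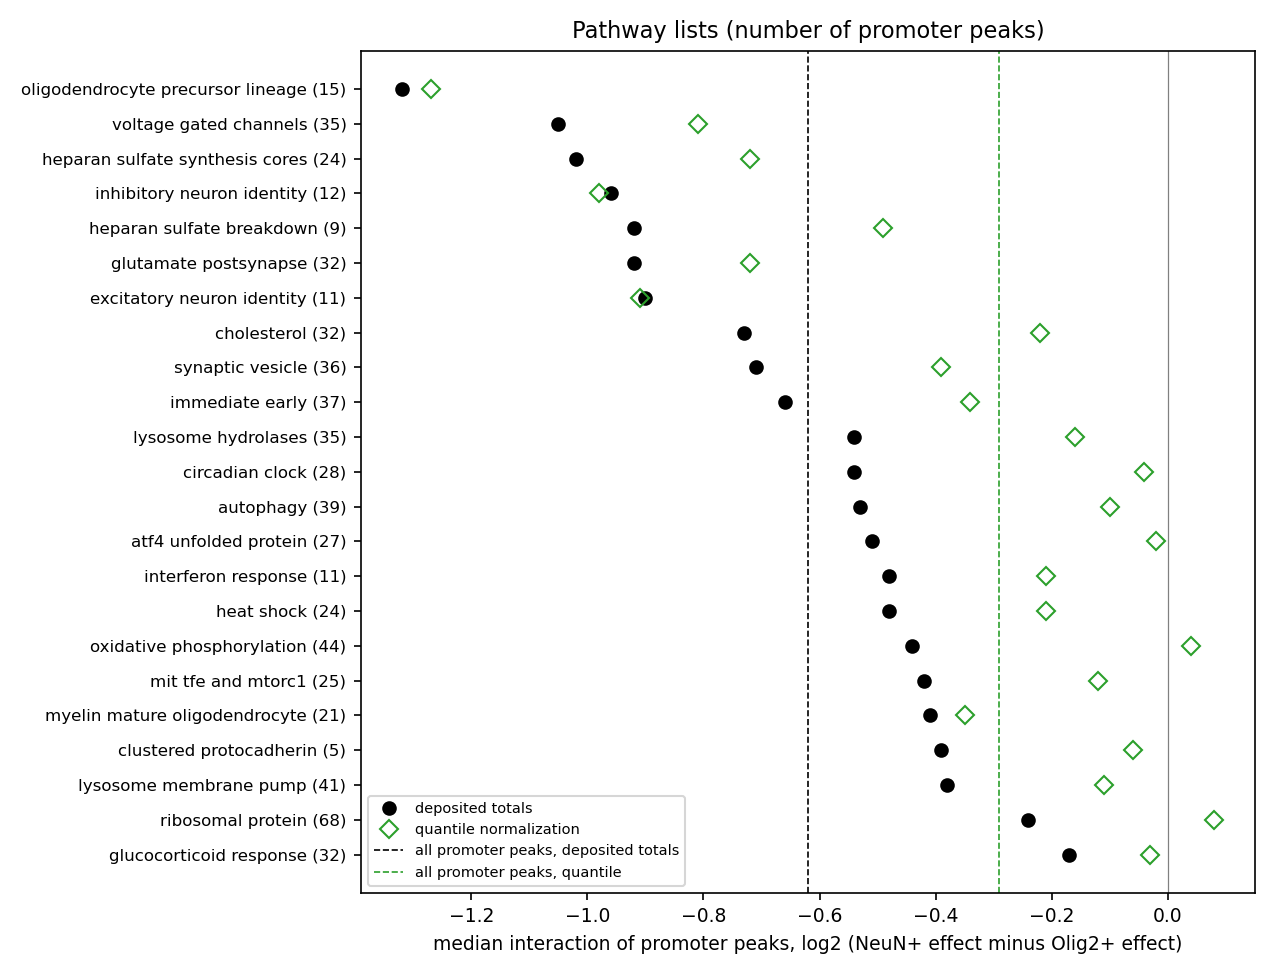
Median interaction (log2) of the promoter peaks of each of 23 pathway lists with deposited totals (filled) and after quantile normalization (open), number of peaks in parentheses, beside the medians of all promoter peaks (dashed lines at -0.62 and -0.29). Precursor and lineage genes are lowest at -1.32, and glucocorticoid-responsive genes highest at -0.17 with deposited totals.

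Peaks shared by the 2 nuclei sorts but without a microglia peak had fewer negative interactions and, with the deposited totals, more positive ones. Of these 10185 peaks 16.5% were negative and 5.54% positive, with a median of -0.20, against 39.8%, 2.11% and -0.51 in the 19362 with a microglia peak. Within promoters the shares were 32.3% and 3.10% without a microglia peak (2225 peaks) and 52.4% and 1.48% with one. At distal peaks they were 12.1% and 6.22% without one and 18.2% and 3.17% with one. After quantile normalization the shares of negative calls at promoters were closer, at 21.8% without and 23.8% with a microglia peak. The positive shares then turned round, at 5.31% without and 6.2% with one over all shared peaks, and at 3.42% and 7.33% at promoters. Distal peaks kept their order, with 5.84% positive without and 4.27% with a microglia peak. Of the 822 peaks positive in both scalings 56.3% had no microglia peak, against 25.1% of the 4887 negative ones.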

How the data were processed

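Per the labels, 8 libraries of sorted forebrain nuclei were used (NeuN+ and Olig2+, WT and SgshKO, 2 each). The submitters' processing notes name Bowtie2, HOMER and mm10, without versions. The authors deposited 1 table of peaks per sort, and per the file headers the signal is tags per peak scaled to a library total of 10000000. Multiplying back by the header totals gave whole reads for 100% of values (within 0.01). Median reads per shared peak and library were 26 to 51.

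Log2(tags + 1) was fitted with limma 3.58.1 in R 4.3.3 (group means, trend, two-sided, Benjamini-Hochberg over 29547 peaks, 4 residual degrees of freedom per peak). Values given as ± are standard errors. A log2(value + 1) difference understates changes of low peaks. Quantile normalization was done within each table. edgeR 4.0.16 and DESeq2 1.42.0 were run on the recovered reads as alternatives. The limma and edgeR fits were tested on simulated data, and DESeq2 was not. A first criterion, on recovery of large changes at any depth, was missed because of peaks with few reads, and was replaced after that result by criteria on bias, sign, false calls and recovery at the deeper peaks. Sequences came from RefSeq windows of GRCm38.p6 (250 bases before to 50 after a start).

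Named peaks were those with the 4 largest interactions per direction among distal and among promoter peaks called in both scalings with at least median signal, the 3 such opposite peaks per direction with the largest smaller effect, the smallest p per pathway list among promoter peaks of at least median signal, and the Sgsh and Col19a1 peaks. Of these, 1 is not reported here. The members, lists and rules were chosen with earlier results of these data known. Alternatives changed the scaling, pseudocount, filters, overlap, threshold, model and libraries. The edgeR fit with deposited totals, the GC correction and the fit without peaks at 0 WT reads were added after the data were seen.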

Additional observations from a re-analysis of the deposited data

Results flagged for a closer look

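At 40 of the 42 named peaks the interaction was called by limma. Most named peaks were picked for being called or for the smallest p of a list, so this count follows from the choice. Of all 29547 shared peaks, 31.8% were called negative and 3.29% positive. The interactions above 0, with a higher SgshKO to WT ratio in NeuN+ nuclei, were Zbtb16 2.8, Bend5 2.78, Slc38a4 2.5, Atp10a 2.21, H2bc12 1.77, Cab39l 1.58, Cdk19 1.37 and Tmem138 1.36. Those below 0 were Cadps -2.57, Hes1 -2.49, Itgb5 -2.42, Plekha1 -2.41, Adamts1 -2.56, Fam43b -2.52, Prr7 -2.43, Rbms1 -2.43, Grid1 -2.26 and Sgsh -1.16. Of the pathway peaks, each picked for the smallest p among promoter peaks of at least median signal in its list, those called and given here were below 0: Asah1 -1.17, Npc1 -0.96, Hgsnat -1.01, Hs3st1 -1.35, Tfeb -1.24, Map1lc3b -1.15, Arc -1.43, Ddit4 -0.95, Bhlhe40 -1.18, Ddit3 -0.73 and Hspa8 -0.71, then Cox5a -1.23, Rpl37 -0.97, Insig1 -1.15, Tle4 -0.85, Meis2 -1.65, Homer1 -1.39, Kcnq3 -1.82, Ugt8a -1.44, Id4 -0.69 and Stat2 -0.69. No group had enough libraries for a search for outlying samples.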

How the results depend on the processing

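The number of called interactions was 6636 after quantile normalization within each table, 2366 by DESeq2 (5988 at an unadjusted p under 0.05) and 5311 with 12 libraries in 1 fit (16740 peaks), against 10355. Positive calls, 972 with the deposited totals, numbered 1741 after quantile normalization, 1975 with the in-peak sum, 3344 by edgeR with TMM, 553 at a reciprocal overlap of 80%, 153 with 12 libraries and 404 at an adjusted p under 0.01. Negative calls, 9383 with the deposited totals, numbered 4895, 5445, 3601, 1627 by DESeq2 and 5158 with 12 libraries. Leaving out 1 library gave 7812 to 10184 calls, 571 to 984 positive and 7121 to 9286 negative. Positive calls were fewest without Olig2+ WT replicate 2 (571) and replicate 1 (640). The promoter minus distal difference was -0.18 after quantile normalization, -0.5 at 80% overlap and -0.42 with 12 libraries, and -0.48 to -0.42 without 1 library. The difference between the GC end deciles was -0.89 after quantile normalization, -0.96 with a pseudocount of 5 and -0.99 with 12 libraries, and 0.02 after the GC correction, by its construction. Same-numbered deviations had correlations of -0.0142 to 0.0182 between groups over 14774 peaks. With 2 libraries per group this cannot tell whether the replicate numbers pair the samples, and the labels do not say. With the replicate number as a block 10362 interactions were called, 981 positive, and with a block by genotype and number 10684, 1037 positive. Signs turned at uncalled peaks only: Pcdhgc3 was 0.06 by edgeR with TMM and 0.02 by DESeq2, and Col19a1 was 0.11 by edgeR with TMM. Of the other alternatives at the 42 named peaks, 976 kept call and sign and 14 lost the call. The causes were not tested. Low peaks limit all of this, since the median shared peak held 26 to 51 reads per library.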

Other observations

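Histone and zinc finger promoters were looked at after the positive calls had been seen, so they carry no test. Promoter peaks of histone genes (50 peaks of 42 genes of the H1, H2A, H2B, H3 and H4 families) had a median interaction of 0.13, with 7 positive and 9 negative calls, against -0.62 for all promoter peaks, of which 1.73% were positive and 49.3% negative. The 25 of them with a start-site window had a median GC content of 45.7%, a median interaction of 0.38 and, after the GC correction, of -0.56, near the -0.61 of all windows. The correction moves each GC level toward that value by its construction. Many of these genes have near-identical copies, and how multiply mapped reads were treated is not given in the sources used here. Promoter peaks of genes named Zfp with a number (396 peaks of 293 genes) had a median of -0.25, with 27 positive (6.82%) and 117 negative calls (29.5%). Their 188 windows had a median GC content of 55.8%, a median interaction of -0.13 and, after the correction, of -0.36.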
